A study of Mus musculus with 2 samples.

Results

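A set of 10 genes, most of them signals that sinusoidal endothelial cells and hepatic stellate cells can send to their neighbours, was followed in single-cell libraries of mouse liver. The members were the 10 listed genes Wnt2, Wnt9b, Rspo3, Hgf, Kitl, Bmp2, Bmp6, Dll4, Esm1 and Vwf, of 19059 genes counted, and all 10 were present in both matrices. Each was chosen by name, with earlier results of these data known. Dll4 and Esm1 were the members that differed by 2-fold or more between the libraries in pooled endothelial cell-like cells. Both were lower in the library labelled AEG-1DMAC, but Dll4 by less than 2-fold among cells of like depth. In both libraries 8 members had a higher level in endothelial than in stellate cell-like cells, and Hgf and Rspo3 were higher in stellate cell-like cells.

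The 2 libraries came from livers of littermates of 27 weeks that had received a high-fat, high-sugar diet (HF/HSD) for 20 weeks from the age of 7 weeks. One was labelled AEG-1fl/fl, from mice with a floxed AEG-1 gene (Mtdh) and no Cre, and the other AEG-1DMAC, in which a Cre driven by the lysozyme M gene removes AEG-1 from myeloid cells. The floxed allele and the diet were shared by both. Neither endothelial nor stellate cells are the target of that Cre, so the comparison asks how these neighbours of the macrophages differ between livers labelled with and without the myeloid deletion. Each genotype had 1 library, so no difference between the libraries has a replicate check, no p-value was made, and all intervals cover counting error only. Whether a library pools several livers was not stated.

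Cells were kept from 100 detected genes upward and up to a mitochondrial share of 10%, which left 2571 cells of the library labelled AEG-1DMAC and 3508 of the library labelled AEG-1fl/fl, with medians of 12746 and 7682 counts. Egfl7, Ushbp1 and Ptprb gated 356 and 410 endothelial cell-like cells, and Reln, Pdgfrb and Lrat gated 141 and 260 stellate cell-like cells, where paired values here and in all that follows are for AEG-1DMAC first and AEG-1fl/fl second. All 14 endothelial identity genes that the gate did not use, Pecam1, Cdh5 and Stab2 among them, and all 14 stellate identity genes, Dcn and Colec11 among them, were detected in their classes. The sum of the endothelial list was 2966 and 4642 counts per 1000000 (CPM) in endothelial cell-like cells but 731 and 936 CPM in stellate cell-like cells. The stellate list summed to 8370 and 11477 CPM in stellate cell-like cells and to 949 and 828 CPM in endothelial cell-like cells.

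The deposited labels and the target gene went against each other. Mtdh stood at 91.1 and 38.9 CPM in macrophage-like cells, so it was higher in the library labelled AEG-1DMAC (log2 ratio 1.23, 95% interval 1.04 to 1.41). Its log2 ratios in the endothelial and the stellate pool were −0.16 and −0.02, and both intervals included 0. Where the probes of Mtdh lie relative to the deleted part was not given in the sources used here, so this gene may not report the deletion. Every direction below refers to the libraries as labelled. Cells of 10 barcodes occurred in both libraries, and 1 and 2 of them were gated endothelial or stellate. Every member's value stayed within its counting interval without them.

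RNA of hepatocytes was present in all cells and differed between the libraries. A list of 20 hepatocyte genes reached 89.9% and 69.8% of its hepatocyte-like share in the endothelial pool, and 77.3% and 70.7% in the stellate pool. Beside this, the endothelial identity sum was lower in the library labelled AEG-1DMAC by a log2 ratio of −0.65, with 14 of 14 genes lower, and the stellate identity sum by −0.46. Log2 ratios of the members between libraries are therefore given on the CPM scale, per count of the class, and as the identity-scaled ratio, per count of the class's identity genes. For partner genes the ratio is on the CPM scale unless called identity-scaled. Where the hepatocyte-like profile is subtracted below, what is left is divided by the part not taken as hepatocyte RNA. In both pools this part was smaller in the library labelled AEG-1DMAC. The division by itself raises all log2 ratios between libraries within a class by the same amount.

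Liver endothelial and stellate cells line and wrap the sinusoids, and their secreted factors shape the hepatocytes beside them. WNT2, WNT9B and the WNT amplifier R-spondin 3, made around the central vein, maintain the pericentral gene program of hepatocytes through Frizzled, LRP5/6 and LGR receptors. HGF acts on the receptor MET of hepatocytes, and BMP2 and BMP6 from endothelium drive hepatocyte hepcidin in response to iron. DLL4 is a Notch ligand of endothelium, while endocan (Esm1) and von Willebrand factor (Vwf) mark states and vessel types of endothelial cells.

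The 2 members with the largest difference between the libraries, Esm1 and Dll4, are shown with the bases in front of their start sites, since both are endothelial genes and both were lower in the library labelled AEG-1DMAC. Promoter sequences of RefSeq on GRCm38.p6 were found for 7 of 10 members. Rspo3, Bmp2 and Vwf had no entry. The 250 bases before the start site of Esm1 lie at chr13:113209409-113209658 and those of Dll4 at chr2:119325534-119325783, both on the plus strand. The genes themselves span chr13:113209659-113218098 and chr2:119325784-119335962 in the GENCODE annotation of the same genome. Capitals mark GGAA, the core that ETS factors bind, or TTCC, the same letters on the other strand.
Esm1: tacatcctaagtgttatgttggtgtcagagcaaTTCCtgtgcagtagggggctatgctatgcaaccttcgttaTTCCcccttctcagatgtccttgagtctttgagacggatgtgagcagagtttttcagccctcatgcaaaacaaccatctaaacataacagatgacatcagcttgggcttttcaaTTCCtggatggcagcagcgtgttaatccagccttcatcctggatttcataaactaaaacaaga
Dll4: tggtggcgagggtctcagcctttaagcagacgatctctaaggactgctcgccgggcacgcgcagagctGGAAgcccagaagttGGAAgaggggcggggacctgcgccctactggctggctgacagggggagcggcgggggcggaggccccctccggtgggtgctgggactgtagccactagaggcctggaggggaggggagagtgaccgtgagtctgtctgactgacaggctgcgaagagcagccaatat

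Esm1 held the core 3 times, each on the opposite strand, and Dll4 held it 2 times, each on the strand of the gene. This core is in 93.4% of 32851 promoter windows of the same length, so its presence is no mark of these genes. Neither window held the longer ETS letters AGGAAG (29.5% of windows), the GATA letters AGATAA (9.99%), the SOX letters ACAAAG (16.5%) or the RBPJ letters TGGGAA (21.6%), on either strand. AGGAAG and TGGGAA each contain the core. The windows differed in base composition, with 44.0% G and C for Esm1 and 65.6% for Dll4.

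Wnt2 was an endothelial gene. Its level was 58.0 CPM in endothelial cell-like cells of the library labelled AEG-1DMAC (95% Poisson interval 52.9 to 63.4) and 53.6 CPM in the other (47.5 to 60.3). Stellate cell-like cells had 5.67 and 4.39 CPM, 10.2-fold and 12.2-fold less. The endothelial values differed by a log2 ratio of 0.11 (−0.10 to 0.33), an interval that includes 0, but the identity-scaled ratio was 0.76 (0.54 to 0.98).

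A count of Wnt2 was found in 39.9% and 25.1% of endothelial cell-like cells. After each cell was thinned to 2000 counts, which left 329 and 379 cells, the shares were 18.6% and 12.8%, against 0.487% and 0.157% in hepatocyte-like cells. Outside endothelium the same gene was also higher in the library labelled AEG-1DMAC, at 5.99 and 1.16 CPM in macrophage-like cells, 2.34 and 0.647 CPM in hepatocyte-like cells and 19.4 and 2.16 CPM in cells that passed no gate. What part of these counts is free RNA was not tested.

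Wnt9b was rarer and had no count in stellate cell-like cells of either library. Endothelial cell-like cells held 74 and 77 counts, in 18 and 26 cells, which gave 8.81 and 14.7 CPM. The absence from stellate cell-like cells allows up to 3 counts per library, so the endothelial level was at least 5.18-fold and 19.0-fold higher. Between the libraries Wnt9b had a log2 ratio of −0.74 (−1.22 to −0.26), and −0.10 (−0.58 to 0.38) when identity-scaled.

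Rspo3, the amplifier of WNT signals, was found in both cell types. Stellate cell-like cells held 129 and 121 CPM and endothelial cell-like cells 62.1 and 59.2 CPM, so the stellate level was 2.08-fold and 2.05-fold higher. A larger share of stellate cell-like cells had a count (56.7% and 55.0%) than of endothelial cell-like cells (21.6% and 16.1%), where up to 56 and 22 counts were reached in 1 cell. Thinned to 2000 counts, the shares were 29.7% and 29.6% of stellate and 11.1% and 8.86% of endothelial cell-like cells, with 0.496% and 0.250% in hepatocyte-like cells. Rspo3 was thus spread over many stellate cell-like cells and gathered in few endothelial ones.

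The higher level of Rspo3 in stellate cell-like cells did not hold in 2 settings. Subtracting the hepatocyte-like profile turned the log2 ratio of endothelial over stellate from −1.06 to 0.08 in the library labelled AEG-1DMAC. In that library the part left for the division was smaller in endothelial than in stellate cell-like cells, which by itself raises this ratio. In the 233 and 304 endothelial cell-like cells without a count of a stellate gate marker, a choice added after the data were seen, it was −0.06 (−0.31 to 0.20) and −0.24 (−0.49 to 0.02). These cells held 2275649 and 1730204 of the 8401508 and 5220762 endothelial counts. Rspo3 stood at 124 and 103 CPM in them, but at 21.7 and 11.2 per 1000 identity counts, beside 20.9 and 12.8 in all endothelial cell-like cells. The stellate pool was not restricted in such a way, so this setting cannot decide where the level of Rspo3 is higher. Between the libraries Rspo3 had ratios of 0.07 (−0.14 to 0.28) in endothelial and 0.09 (−0.14 to 0.32) in stellate cell-like cells. Scaled to identity genes, they were 0.72 (0.51 to 0.92) and 0.55 (0.31 to 0.78).

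**Figure D1:**
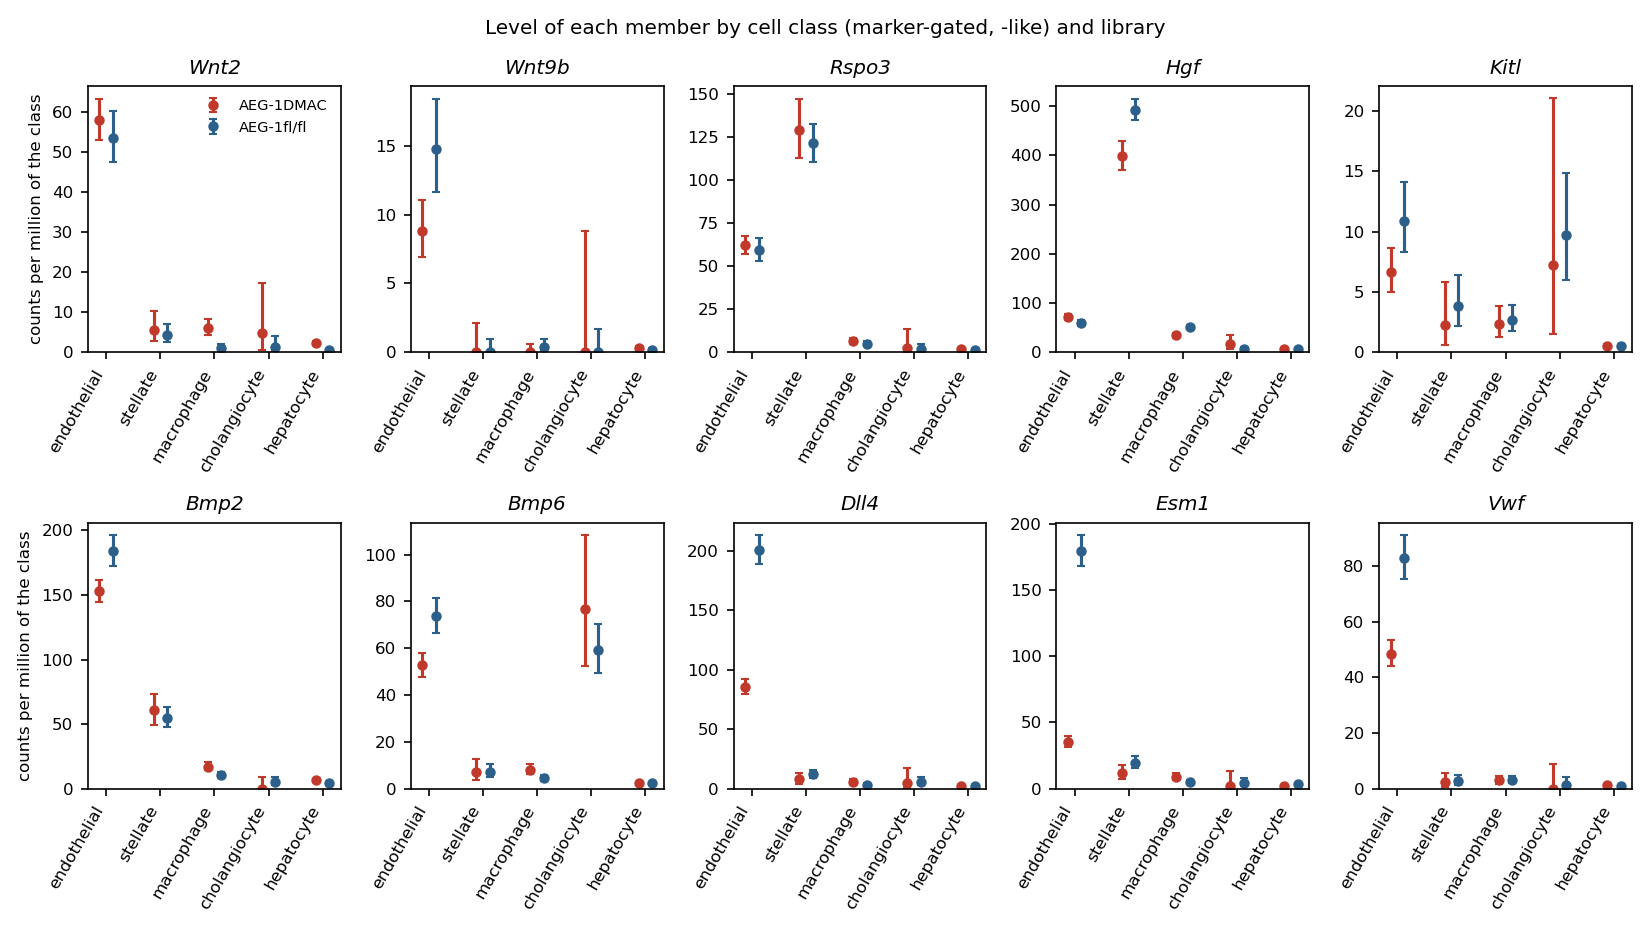
Level of each member in 5 classes of cells, in CPM of the class total (vertical axis, from 0, with its own scale for each gene), for the libraries labelled AEG-1DMAC (red) and AEG-1fl/fl (blue). Points are class sums and bars are 95% Poisson intervals. Stellate cell-like cells stand highest for Rspo3 and Hgf, and endothelial cell-like cells exceed stellate cell-like cells for the other 8 members.

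Receptors of these WNT signals were compared from a list of 24 further genes of the pathway. In endothelial cell-like cells 19 of them had at least 20 counts, and 1 was 2-fold or more higher and 0 lower. Over all genes of the class 1.01% were higher and 6.45% lower past 2-fold. The list's median log2 ratio was −0.18 beside −0.27 over all genes. Lgr5, the R-spondin receptor of pericentral hepatocytes and a target of WNT signals, was the 1 that was higher, at 4.76 and 1.53 CPM. The same gene stood at 9.40 and 3.78 CPM in hepatocyte-like cells (log2 ratio 1.31, 1.09 to 1.54) and at 10.8 and 0.517 CPM in stellate cell-like cells, on 19 and 2 counts. The part of hepatocyte RNA in these endothelial and stellate values was not tested.

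Past 2-fold, 1.43% of all genes in stellate cell-like cells were higher and 4.97% lower. Of the list, 17 genes were counted often enough there, with 3 higher and 1 lower. Beside Lgr5 these were the WNT target Axin2 (1.28, 0.84 to 1.72) and the WNT inhibitor Rnf43 (1.54, 0.92 to 2.17), while the receptor Fzd1 was lower (−1.33, −1.93 to −0.77, identity-scaled −0.87). Axin2 and Rnf43 had ratios of 0.59 and 0.54 in hepatocyte-like cells. The coreceptors Lrp5 and Lrp6 had ratios of 0.43 and −0.05 there, and Lgr4 had −0.16. Lrp5, Lrp6 and Lgr4 thus stayed under 2-fold in hepatocyte-like cells, while Lgr5, as given above, did not.

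Hgf was a stellate gene. It stood at 399 CPM (370 to 430) and 493 CPM (471 to 515) in stellate cell-like cells, 5.57-fold and 8.30-fold above the 71.7 and 59.4 CPM of endothelial cell-like cells. A count was found in 80.1% and 84.6% of stellate cell-like cells. Macrophage-like cells had 34.3 and 51.3 CPM and hepatocyte-like cells 7.41 and 5.91 CPM. Stellate cell-like cells gave 26.6% and 49.4% of all Hgf counts of the libraries and were 5.48% and 7.41% of the cells. Such a share joins the number of cells with the level per cell.

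On the CPM scale, Hgf was lower in stellate cell-like cells of the library labelled AEG-1DMAC (log2 ratio −0.31, −0.43 to −0.18) and higher in its endothelial cell-like cells (0.27, 0.07 to 0.47). Scaled to identity genes, both were higher there, by 0.15 (0.02 to 0.28) and 0.92 (0.72 to 1.12), so the stellate direction depended on the scaling. The stellate identity genes moved with Hgf in endothelial cell-like cells, with a log2 ratio of 0.20 on the CPM scale and 0.84 when identity-scaled. Endothelial cell-like cells without a count of a stellate gate marker had Hgf ratios of 0.16 (−0.12 to 0.45) and 0.85 (0.57 to 1.13), while their stellate identity sum had −0.38 (−0.49 to −0.27) and 0.31. Without the tenth of cells with the highest counts, the endothelial ratio was −0.04. Met, the HGF receptor, had a ratio of −0.06 (−0.13 to 0.01) in hepatocyte-like cells, at 53.2 and 55.6 CPM.

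Kitl encodes stem cell factor and had few counts. It held 56 and 57 counts in endothelial cell-like cells (6.67 and 10.9 CPM), and cholangiocyte-like cells had a similar level at 7.20 and 9.72 CPM, on 3 and 21 counts. Stellate cell-like cells had 2.27 and 3.87 CPM, 2.94-fold and 2.82-fold less than endothelial ones. The log2 ratio between libraries was −0.71 (−1.27 to −0.15), and −0.07 (−0.62 to 0.49) when identity-scaled. Kit, its receptor, was itself endothelial at 44.4 and 78.7 CPM, with ratios of −0.83 on the CPM scale and −0.18 when identity-scaled.

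Of 8 further genes around HGF and stem cell factor, 7 had enough counts in endothelial cell-like cells. Of these 7, 2 were 2-fold or more lower, where 6.45% of all genes were. These were Plau, the urokinase gene, whose product can activate HGF (−1.38, −1.63 to −1.12, identity-scaled −0.73), and St14, the matriptase gene (−1.32, −2.71 to −0.01, on 9 and 14 counts). St14 had a ratio of −1.64 in hepatocyte-like cells as well. In stellate cell-like cells Plau (−1.06, identity-scaled −0.60) and Plat, the tissue plasminogen activator gene (−1.72, identity-scaled −1.26), were lower, as 2 of 6 genes with enough counts. Over all genes of that class 4.97% were 2-fold or more lower.

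Both BMP ligands were endothelial. Bmp2 stood at 153 and 184 CPM in endothelial cell-like cells, 2.52-fold and 3.35-fold above stellate cell-like cells (60.6 and 55.0 CPM). It was found in 75.3% and 69.3% of endothelial cell-like cells, and in 42.7% and 44.0% after thinning to 2000 counts. Bmp6 stood at 52.7 and 73.7 CPM, 7.16-fold and 10.2-fold above stellate cell-like cells, but cholangiocyte-like cells reached a like level of 76.8 CPM (52.5 to 108) and 59.3 CPM (49.4 to 70.5).

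On the CPM scale, both ligands were lower in endothelial cell-like cells of the library labelled AEG-1DMAC, with log2 ratios of −0.27 (−0.39 to −0.15) for Bmp2 and −0.48 (−0.68 to −0.28) for Bmp6. Both signs turned with the scaling, to 0.38 (0.25 to 0.50) for Bmp2 and 0.16 (−0.04 to 0.36) for Bmp6 per identity-gene count. In stellate cell-like cells Bmp2 had ratios of 0.14 (−0.21 to 0.48) and 0.60 (0.25 to 0.94). Pooled over endothelial cell-like cells, neither BMP ligand had a direction that held on both scales.

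Among 23 other BMP genes, all counted often enough in endothelial cell-like cells, the median was −0.36. Of these genes 3 were 2-fold or more lower and 2 higher, beside 6.45% and 1.01% of all genes. Smad6 (−1.08, identity-scaled −0.44) and Smad9 (−1.10, identity-scaled −0.46), intracellular parts of the pathway, were among the lower ones. The higher ones were the ligands Bmp7, on 40 and 10 counts, and Bmp10, on 37 and 6 counts. Hepatocyte-like cells had ratios of −1.43 for Smad9, 1.37 for Bmp7 and 1.16 for Bmp10, and the hepatocyte part of the endothelial values was not tested. The receptors Bmpr1a, Bmpr2 and Acvr1 had ratios between −0.18 and 0.10 in hepatocyte-like cells. Hamp, which encodes hepcidin, had a ratio of −0.53 in hepatocyte-like cells and −1.78 in stellate cell-like cells. In stellate cell-like cells Smad6 (−1.36) and Smad9 (−1.84) were the other 2 of 22 genes that were 2-fold or more lower. Over all genes of that class 4.97% were. The hepatocyte part of these stellate values was not tested either.

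Dll4 had 64.0% and 66.0% of its counts in endothelial cell-like cells. Its level was 85.3 CPM (79.2 to 91.8) in the library labelled AEG-1DMAC and 201 CPM (189 to 213) in the other, 10.8-fold and 16.5-fold above stellate cell-like cells. The log2 ratio was −1.23 (−1.37 to −1.09) and the identity-scaled one −0.59 (−0.73 to −0.45), so Dll4 was lower on both scales and past 2-fold on the first only. With the hepatocyte-like profile of each library subtracted, the ratio turned to 0.32, where the division by itself raises every endothelial ratio alike. A count was found in 64.0% and 75.4% of endothelial cell-like cells, and in 31.8% and 51.5% after thinning, where 0.402% and 0.432% of hepatocyte-like cells had one.

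Of 11 other Notch genes, 10 had enough counts in endothelial cell-like cells, with a median of −0.50. Past 2-fold, 2 were lower and 1 higher, beside 6.45% and 1.01% of all genes. Efnb2, a gene of arterial endothelium and a known Notch target, was lower at 55.3 and 115 CPM (−1.05, −1.23 to −0.87, identity-scaled −0.40). In stellate cell-like cells Efnb2 had 1 and 36 counts. Jag2, a Notch ligand, was lower on 10 and 19 counts (−1.61), and Notch3, a Notch receptor of mural cells, was higher on 35 and 5 counts (2.12). Notch1, the receptor, had an endothelial ratio of −0.50 and a ratio of 0.49 in hepatocyte-like cells.

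Esm1 had the largest difference between the libraries among the members. Its endothelial level was 35.4 CPM (31.4 to 39.6) in the library labelled AEG-1DMAC and 179 CPM (168 to 191) in the library labelled AEG-1fl/fl, from 297 and 937 counts. The log2 ratio was −2.34 (−2.54 to −2.15), 5.08-fold lower, and the identity-scaled ratio was −1.70 (−1.89 to −1.51), 3.24-fold lower. Subtracting the hepatocyte-like profile left −0.83. Among 11751 genes with at least 20 counts in the class, 0.408% had a lower ratio than Esm1.

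Fewer cells carried Esm1 as well. A count was found in 68 of 356 and 172 of 410 endothelial cell-like cells, 19.1% (15.1 to 23.6) and 42.0% (37.1 to 46.9). After thinning to 2000 counts the shares were 8.10% and 29.1%, against 0.405% and 0.823% in hepatocyte-like cells. Stellate cell-like cells had 11.9 and 19.6 CPM of Esm1, a log2 ratio of −0.72 (−1.49 to −0.01) that was −0.27 (−1.04 to 0.45) when identity-scaled, and the endothelial level was 2.97-fold and 9.14-fold higher than theirs. Macrophage-like cells went the other way, with 8.91 and 5.22 CPM. In the library labelled AEG-1DMAC the 6 neutrophil-like cells stood above endothelial cell-like cells for Esm1, on 1 count.

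Vwf, the other mark of endothelial state, followed a different course. It stood at 48.6 and 82.9 CPM in endothelial cell-like cells, 21.4-fold and 29.2-fold above stellate cell-like cells, which held 4 and 11 counts. The log2 ratio was −0.77 (−0.97 to −0.57), but the identity-scaled ratio was −0.13 (−0.32 to 0.07), an interval that includes 0.

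Across all 10 members in endothelial cell-like cells, 7 ratios were below 0 and 3 above it on the CPM scale, and 5 were below and 5 above when identity-scaled. The members' median was −0.60, beside −0.27 over all genes, and 0.05 beside 0.38 when identity-scaled. Past 2-fold, 2 members were lower, where 6.45% of all genes were, and 0 were higher, where 1.01% of all genes were. In stellate cell-like cells 7 members had at least 20 counts, 0 were 2-fold lower or higher, and the background was 4.97% lower and 1.43% higher of 11220 genes. Their median was 0.03 beside −0.06 over all genes.

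**Figure D2:**
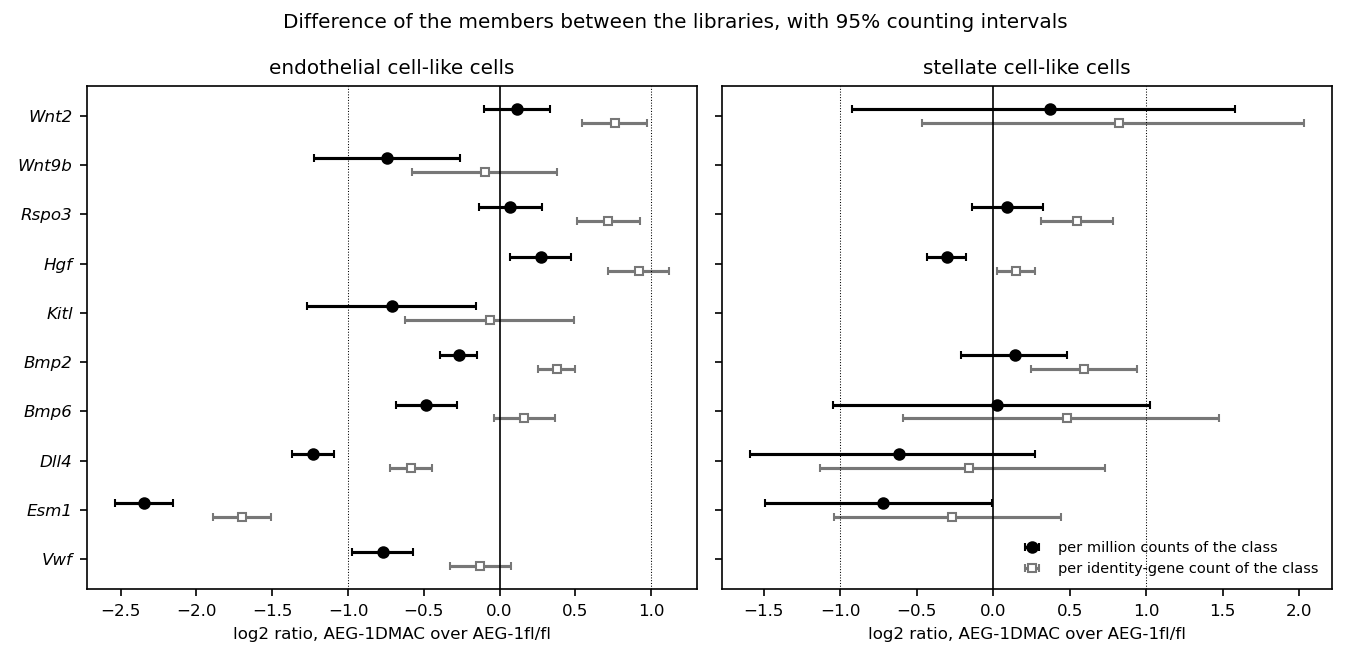
Log2 ratio of the library labelled AEG-1DMAC over the library labelled AEG-1fl/fl (horizontal axis) for each member in endothelial (left) and stellate (right) cell-like cells, with 95% Clopper-Pearson intervals, in CPM (black circles) and per identity-gene count (grey squares). Dotted lines mark 2-fold, and members with fewer than 20 counts in a class are not drawn. Esm1 and Dll4 lie below 0 on both scales in endothelial cell-like cells, and Bmp2 and Bmp6 change sides.

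The endothelial cells of the libraries differed in depth, and the members were therefore compared within 3 strata of cells, a choice added after the data were seen. The strata held 147 and 240 cells under 5000 counts, 122 and 122 cells of 5000 to 20000 counts, and 87 and 48 cells over 20000 counts. In the pools, the tenth of cells with the highest counts held 59.2% and 61.3% of all endothelial counts. The deepest single cell held 716497 of 8401508 and 233822 of 5220762 endothelial counts. In the stellate pools it held 106759 of 1764663 and 431597 of 3871236 counts. Levels were taken per 1000 counts of the endothelial identity genes. Hepatocyte genes made up 4.62% and 2.89% of the counts in the shallowest stratum and 14.4% and 11.6% in the deepest.

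In each of the 3 strata Esm1 and Dll4 were lower in the library labelled AEG-1DMAC. Esm1 stood at 12.1 and 47.1 in the shallowest stratum, 11.3 and 32.4 in the middle one and 12.3 and 33.1 in the deepest, with log2 ratios of −1.97, −1.52 and −1.43. Dll4 stood at 36.5 and 50.3, 30.2 and 40.1, and 23.5 and 33.8 in the same order, with ratios of −0.46, −0.41 and −0.53. No interval of these 6 ratios included 0. On the CPM scale Dll4 had −0.53 (−0.77 to −0.30), −0.71 (−0.95 to −0.48) and −0.26 (−0.56 to 0.04). Each was under 2-fold, beside −1.23 in the pool.

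Wnt2, Rspo3, Hgf and Bmp2 were higher in the library labelled AEG-1DMAC in each stratum, although some intervals included 0. Wnt2 stood at 17.9 and 9.70, 19.9 and 10.6, and 20.1 and 17.8 per 1000 identity counts, with log2 ratios of 0.89 (0.47 to 1.30), 0.91 (0.54 to 1.28) and 0.18 (−0.20 to 0.57). Rspo3 had ratios of 0.98 (0.60 to 1.35), 0.55 (0.18 to 0.92) and 0.33 (−0.03 to 0.71). Hgf had 0.99, 0.57 and 0.70, each with an interval above 0, and Bmp2 had 0.22 (−0.01 to 0.45), 0.44 and 0.40.

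On the CPM scale these 4 members were also higher in every stratum, with the smallest log2 ratio 0.14, for Bmp2 in cells of 5000 to 20000 counts. The pooled ratio of Bmp2 was −0.27, so its direction differed from that in each stratum. Its level was 584 and 527 CPM in the shallowest cells, 382 and 347 CPM in the middle stratum and 83.6 and 52.7 CPM in the deepest cells, of which the library labelled AEG-1DMAC had 87 and the other 48. Bmp6 had identity-scaled ratios of −0.02, 0.30 and 0.53, of which the last had an interval above 0. Vwf had no common direction, with 0.88 in the shallowest stratum and −0.33 and −0.75 in the other two. For Wnt9b and Kitl all 3 intervals included 0.

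**Figure D3:**
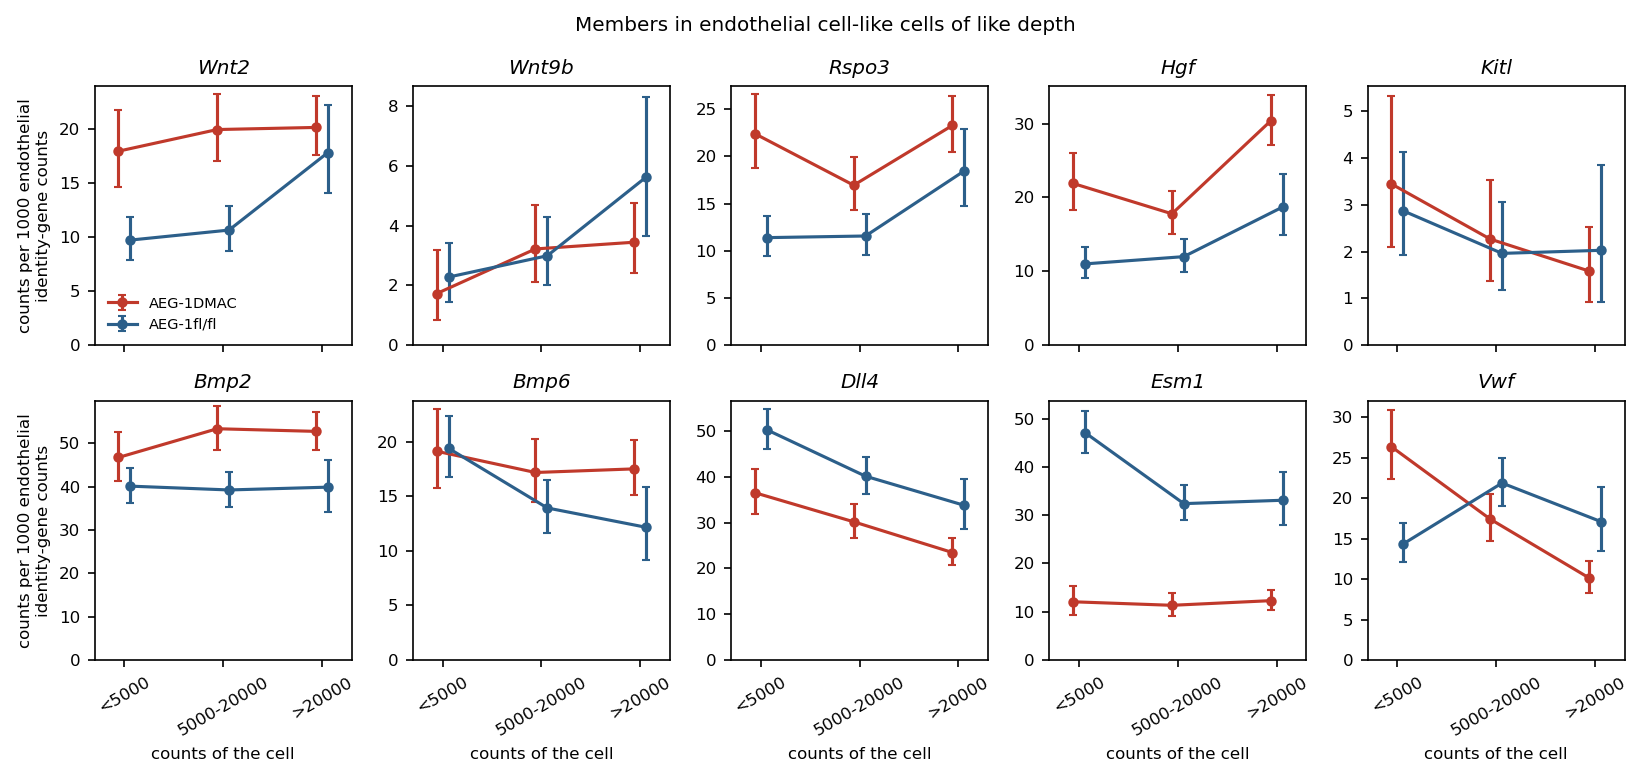
Counts of each member per 1000 counts of endothelial identity genes (vertical axis, from 0) in endothelial cell-like cells of 3 strata of cell depth (horizontal axis), for the libraries labelled AEG-1DMAC (red) and AEG-1fl/fl (blue). Points are sums over the cells of a stratum and bars are 95% Poisson intervals of the member's count. Esm1 and Dll4 stand lower in red in each stratum, Wnt2, Rspo3, Hgf and Bmp2 stand higher, and Vwf crosses over.

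Within the endothelial cell-like cells the members fell into groups that shared cells. These cells were split by whether they had a count of 1 member, and the other members were read per 1000 identity counts. Cells with a count were deeper than cells without one, with medians of 12490 against 5727 counts for Rspo3 in the library labelled AEG-1DMAC and 7233 against 4007 in the other, which such a split brings about by itself.

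The 77 and 66 cells with Rspo3 held nearly all of Wnt9b, with 73 counts against 1 in the other cells of the library labelled AEG-1DMAC and 71 against 6 in the library labelled AEG-1fl/fl. Vwf stood at 34.1 in cells with Rspo3 and 8.20 in cells without it, and at 50.9 and 8.57 in the other library. Wnt2 stood at 34.3 against 12.8, and 27.4 against 7.08. Thbd and Plvap, the thrombomodulin gene and a gene of fenestral diaphragms in other endothelia, were also higher in cells with Rspo3, by log2 ratios of 0.89 and 1.21 in the first library and 0.83 and 0.73 in the second. Cd34, another gene of capillary endothelium, was lower there (−1.55 and −1.26), and Lyve1 had −0.33 and 0.13.

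Dll4 and Esm1 were on the other side of this split. Dll4 stood at 13.9 in cells with Rspo3 against 35.6 in cells without it, and at 25.6 against 48.2 in the library labelled AEG-1fl/fl. Esm1 stood at 5.22 against 15.0, and at 16.4 against 44.9. Efnb2 and the scavenger receptor gene Stab2 were likewise lower in cells with Rspo3, with log2 ratios of −1.17 and −0.79 in the first library and −1.13 and −0.59 in the second. Bmp2 and Bmp6 were lower there too, by −0.36 and −0.71 in the first library and −0.46 and −0.72 in the second.

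A split by Esm1 read the same cells from the other end, so it is no separate check of the split by Rspo3. In the 172 cells with Esm1 of the library labelled AEG-1fl/fl, Vwf stood at 6.01 against 29.8 in the 238 cells without it, Rspo3 at 5.51 against 20.0, and Wnt2 at 5.84 against 17.3. Bmp2 stood at 48.2 against 31.1 and Bmp6 at 20.2 against 11.6. The direction of these 5 members was shared by the 68 cells with Esm1 of the library labelled AEG-1DMAC.

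Cells split by Vwf did not differ in this way for every member. Wnt2, Wnt9b and Rspo3 were higher in the 69 and 106 cells with Vwf, and Esm1, Bmp2 and Bmp6 were lower, but the log2 ratios of Dll4 were −0.13 and 0.14 with intervals that included 0.

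The lower level of Esm1 and Dll4 was present on both sides of the Rspo3 split. Among cells without Rspo3, Esm1 stood at 15.0 in the library labelled AEG-1DMAC and 44.9 in the other, and Dll4 at 35.6 and 48.2. Among cells with Rspo3, Esm1 stood at 5.22 and 16.4, and Dll4 at 13.9 and 25.6. The share of endothelial cell-like cells with Rspo3 itself was 11.1% and 8.86% at equal depth.

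**Figure D4:**
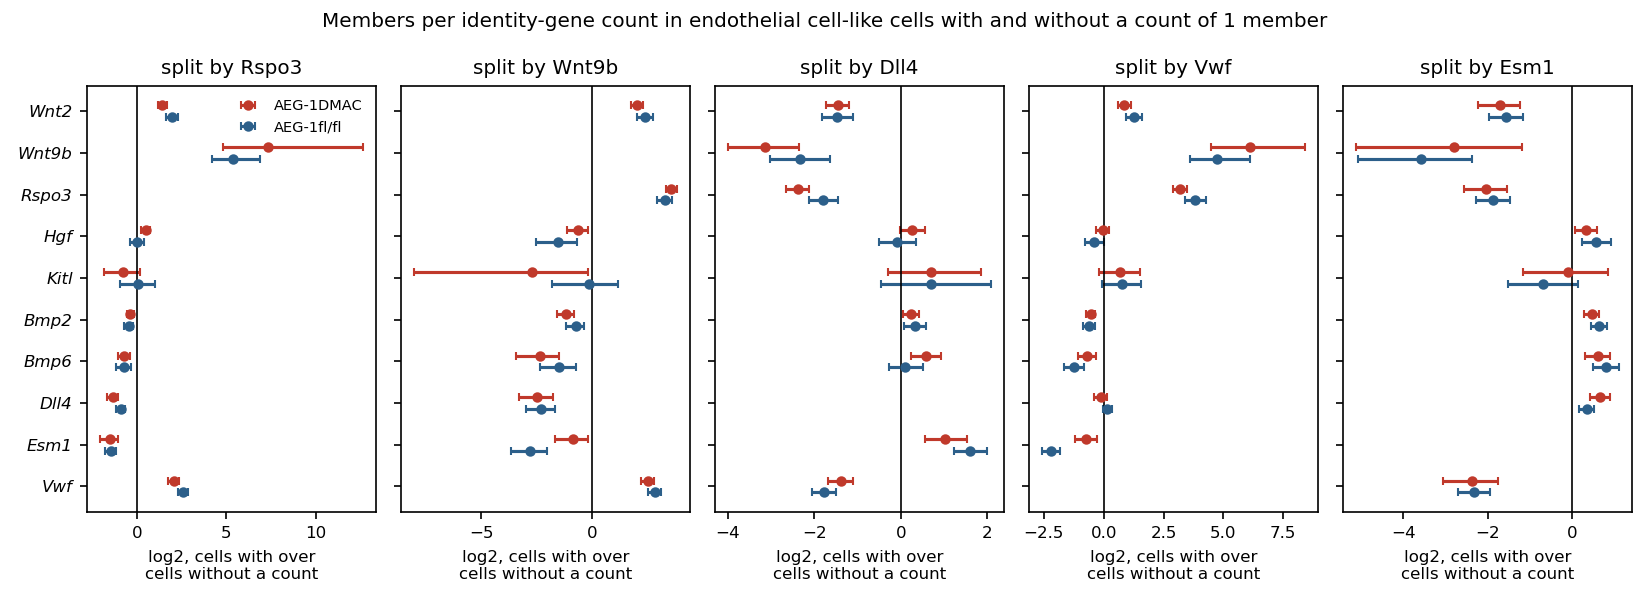
Log2 ratio of each member per identity-gene count in endothelial cell-like cells with a count of Rspo3, Wnt9b, Dll4, Vwf or Esm1 (1 panel each, with its own horizontal scale) over cells without one, for the libraries labelled AEG-1DMAC (red) and AEG-1fl/fl (blue), with 95% intervals. The member that made the split is left out. Wnt2, Wnt9b and Vwf lie above 0 for the split by Rspo3, while Bmp2, Bmp6, Dll4 and Esm1 lie below it in both libraries.

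Lists of endothelial state were read beside Esm1, Dll4 and Vwf. Of 10 genes of sinusoidal identity, 10 were lower on the CPM scale in the library labelled AEG-1DMAC with intervals below 0, and 3 of them past 2-fold, namely Stab1 (−1.05), Stab2 (−1.07) and Lyve1 (−1.13), which take up waste molecules from the blood. Over all genes of the class 75.5% were lower, whether or not the interval left out 0, and 6.45% were lower past 2-fold. The list's median was −0.64 and turned to 0.01 when identity-scaled. Stab2, Clec4g and Oit3 of this list are also identity genes, so that scaling is in part a scaling to the list itself. Of 10 genes of capillary or large-vessel endothelium, Vwf included, 2 were 2-fold or more lower, Cd34 (−1.52, identity-scaled −0.87) and the water channel gene Aqp1 (−1.07, identity-scaled −0.42).

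Of 13 genes of the VEGF and angiopoietin pathways, which act on endothelial cells and to which Esm1 and Dll4 are known to respond, 10 had enough counts in endothelial cell-like cells. Intervals lay below 0 for 9 of them, with a median of −0.85 on the CPM scale and −0.20 when identity-scaled. Kdr, Flt1, Tek and Tie1 of this list are also identity genes, so that scaling is in part a scaling to the list itself. Among all genes of the class, 75.5% had a ratio below 0, whether or not the interval left out 0, and 6.45% were lower past 2-fold. Angpt2, an angiopoietin that endothelial cells make themselves, was 1 of 10 past 2-fold, at 14.2 and 36.8 CPM (−1.38, −1.72 to −1.04, identity-scaled −0.73).

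Genes of stellate activation were lower in the library labelled AEG-1DMAC in stellate cell-like cells and in other classes. Of 9 such genes, 5 were 2-fold or more lower in stellate cell-like cells, where 4.97% of all genes were, namely Col1a1 (−1.33), Col1a2 (−1.21), Col3a1 (−1.11), Timp1 (−1.09) and Spp1 (−3.53), the osteopontin gene. Their list median was −1.09, and −0.63 when identity-scaled, a scale on which Spp1 (−3.08) alone of these 5 was past 2-fold. The same list had medians of −0.77 in endothelial, −0.97 in macrophage-like and −0.61 in hepatocyte-like cells. The authors used Spp1 as a marker of cholangiocytes, and 24 and 82 cells were gated cholangiocyte-like. What part of the stellate Spp1 counts is RNA of such cells was not tested. Of 8 genes of quiescent stellate cells, which include the gate genes Lrat and Reln, 0 were past 2-fold and the median was −0.46 on the CPM scale. Hgf and Rspo3, with −0.31 and 0.09 on that scale, stood above the medians of both lists.

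Over 16 pools of 8 classes and 2 libraries, the genes most like each member in level were named by the Pearson correlation of log2 CPM plus 5, among 11757 genes. These points share libraries, depth and hepatocyte RNA, so the values are descriptions. Some pools are small. The 6 neutrophil-like cells of the library labelled AEG-1DMAC held 19907 counts, where 1 count of Esm1 or of Hgf gave 50.2 CPM. Tal1 (r = 0.979) and Gata2 were among the genes most like Wnt9b, Dll4 was most like Pcdh17 (0.954), F8 and Cyyr1, and Esm1 most like the endothelial receptor genes Tie1 (0.954) and Flt1 (0.911). Hgf was most like Colec11 (0.941), Ecm1 and Colec10, and Rspo3 most like Etv1 (0.963). Among the members themselves, Dll4 and Vwf (0.959), Vwf and Wnt9b (0.935) and Kitl and Bmp6 (0.932) were the closest pairs, and Hgf and Bmp6 (0.172) the farthest.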

How the data were processed

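Liver tissue was profiled with the fixed-RNA, probe-based assay of 10x Genomics, in 1 library per genotype. Per the labels' processing notes the authors aligned to mm10 with Cell Ranger 7.1.0 and used Seurat, and deposited filtered matrices of raw counts of molecules per gene and cell. A cell was kept from 100 detected genes upward and up to 10% of mitochondrial counts. A gate needed at least 2 counts of its 3 markers per 10000, 2 of the 3 markers detected, and a score at least 3 times that of any other passed gate. Cells failing the last were left out as mixed, and no doublet caller was run. Hepatocyte-like cells passed no gate and had at least 10000 counts.

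Counts were summed per class and library and scaled to counts per 1000000 (CPM). Total counts were 79589511 (AEG-1DMAC) and 90440089 (AEG-1fl/fl) per library, and 8401508 and 5220762 in endothelial cell-like cells. Ratios were read for genes with at least 20 summed counts, as 2-fold or more, with 95% Clopper-Pearson intervals, and CPM with Poisson intervals. A count of 0 was taken to allow 3 counts. No p-value was made. The partner genes named were those of at least 2-fold with an interval leaving out 0, and the receptors of the signals. Members and lists were chosen with earlier results of these data known. Notch4 was not used here. Some genes that the rule would name are not reported here. The work was done in Python 3.11.15 with SciPy 1.17.1, NumPy 2.4.6 and, for tables, pandas 2.3.3, and the calculations were tested on simulated data.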

Additional observations from a re-analysis of the deposited data

Results flagged for a closer look

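Hgf went in opposite directions in endothelial and stellate cell-like cells. Its log2 ratio of the library labelled AEG-1DMAC over the library labelled AEG-1fl/fl was 0.27 in endothelial cell-like cells (71.7 and 59.4 CPM) and −0.31 in stellate cell-like cells (399 and 493 CPM), and neither interval included 0. With 1 library per genotype the difference between the cell types was not tested. Scaled to the identity genes of each class, both ratios were above 0, at 0.92 and 0.15. The summed stellate identity genes moved with Hgf in endothelial cell-like cells, at 949 and 828 CPM. In the endothelial cell-like cells without a count of a stellate gate marker, that sum had a log2 ratio of −0.38 (−0.49 to −0.27) and Hgf one of 0.16 (−0.12 to 0.45).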

How the results depend on the processing

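No paired analysis was possible because each genotype had 1 library, and for the same reason no replicate could be left out. Of 2 members at least 2-fold lower in endothelial cell-like cells, 1 was left with 1 or with 4 marker counts per 10000, as a mean over cells, when identity-scaled and in cells of at most 20000 counts, 0 with the hepatocyte-like profile subtracted, which made 5 members higher, and 5 were lower at a limit of 1.5-fold. In stellate cell-like cells the 0 lower members became 1 at 1 marker count per 10000, 2 at a gate ratio of 10 and 2 at 1.5-fold, and the 0 higher became 1 as a mean over cells. Members higher in stellate than in endothelial cell-like cells in both libraries went from 2 to 1 with the profile subtracted. Members found in a larger share of endothelial cell-like cells of the library labelled AEG-1DMAC went from 5 to 3 when thinned to 2000 and to 1000 counts.

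Subtracting the hepatocyte-like profile turned the endothelial log2 ratios of Wnt9b to 0.80, Kitl to 0.81, Bmp2 to 1.27, Bmp6 to 1.07, Dll4 to 0.32 and Vwf to 0.78, the stellate ratio of Hgf to 0.051, and that of endothelial over stellate Rspo3 in the library labelled AEG-1DMAC to 0.081. Identity scaling turned Bmp2 to 0.38 and Bmp6 to 0.16 in endothelial and Hgf to 0.15 in stellate cell-like cells. Bmp2 turned to 0.043 at 4 marker counts per 10000 and to 0.061 in cells of at most 20000 counts, where stellate Esm1 was 0.0014. Endothelial Hgf turned to −0.040 without the tenth of cells with the highest counts, and Vwf to 0.064 as a mean over cells. In the subtraction, 89.9% and 69.8% of the endothelial and 77.3% and 70.7% of the stellate counts were taken as hepatocyte RNA. The division by the rest by itself raises every ratio between libraries of a class by the same amount. The endothelial ratios named for the subtraction all rose by a like amount. What else lies behind these turns was not tested. Esm1 was lower in endothelial cell-like cells in all 16 alternatives (−2.60 to −0.83), Wnt2 was higher in 16 (0.04 to 1.65), and Dll4 was lower in 15 of 16. Of 609 values of single members under alternatives, 383 stayed within the counting interval. Of the 529 that were log2 ratios, 33 changed sign, 16 of them from a ratio whose own interval left out 0.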
